A study of Mus musculus with 6 samples.

Results

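The genes described are 35 mouse genes of mitosis and chromosome segregation, picked by name for what their proteins do: mitotic cyclins and kinases, spindle checkpoint, spindle, condensin and cytokinesis proteins. They were found by Ensembl gene identifier among the 39179 genes of each deposited table, and all 35 were present. Gene expression was measured by sequencing poly(A)-selected RNA from B16-F10 cells, a mouse melanoma line grown in culture. There were 3 libraries from cells labelled Sirpa-knockout (Sirpa-KO) and 3 from cells labelled Sirpa-wild type (Sirpa-WT). Sirpa encodes SIRPα, an inhibitory receptor that binds CD47. The study set the 2 lines side by side to compare their gene expression in the steady state. No drug or other treatment is named for either genotype. The labels give the tissue as tumor and the cell line as Pmel, whereas the series text describes cultured B16-F10 cells. How the gene was edited, and whether each line is 1 clone, is not given in the sources used here. Whether the replicates were separate cultures is not stated either; p-values reflect the spread among these libraries and no more.

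Genes of mitosis are switched on late in the cell cycle, in G2 and M phase. In quiescent cells the MuvB core, as part of the DREAM complex, holds many of them off through a promoter element called the cell cycle genes homology region (CHR). In dividing cells MuvB joins B-MYB and then FOXM1 at the same promoters, and the factor NF-Y binds CCAAT boxes beside it. Their products then condense the chromosomes, build the spindle, hold anaphase until every kinetochore is attached, and divide the cell.

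The promoters of 7 of the genes show these elements. Hmmr, Ect2, Ncapg2 and Bub1 are the members that passed the test in the comparison of genotypes, Cdk1 and Ccnb2 are much studied genes of this class, and Mki67 is the proliferation marker. Each sequence runs 5′ to 3′ from 170 bases before the annotated start to 29 bases after its first base, taken from RefSeq on GRCm38.p6. Capitals mark the CHR hexamers TTTGAA and TTCGAA, and CCAAT, which reads ATTGG where it lies on the other strand.
Hmmr, chr11:40733408-40733607, minus strand: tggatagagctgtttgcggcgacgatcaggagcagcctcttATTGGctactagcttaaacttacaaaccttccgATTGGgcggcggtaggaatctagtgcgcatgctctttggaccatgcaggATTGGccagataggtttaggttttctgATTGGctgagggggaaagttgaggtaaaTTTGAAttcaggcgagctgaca
Ect2, chr3:27153825-27154024, minus strand: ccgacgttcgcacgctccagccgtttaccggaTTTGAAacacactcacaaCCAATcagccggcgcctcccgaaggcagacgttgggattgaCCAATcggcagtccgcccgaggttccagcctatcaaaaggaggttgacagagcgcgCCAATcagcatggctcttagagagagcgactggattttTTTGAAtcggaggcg
Ncapg2, chr12:116405266-116405465, plus strand: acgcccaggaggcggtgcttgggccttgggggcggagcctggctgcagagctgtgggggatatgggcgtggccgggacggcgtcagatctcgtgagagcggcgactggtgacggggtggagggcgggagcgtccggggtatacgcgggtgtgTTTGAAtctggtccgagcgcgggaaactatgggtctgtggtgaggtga
Bub1, chr2:127831830-127832029, minus strand: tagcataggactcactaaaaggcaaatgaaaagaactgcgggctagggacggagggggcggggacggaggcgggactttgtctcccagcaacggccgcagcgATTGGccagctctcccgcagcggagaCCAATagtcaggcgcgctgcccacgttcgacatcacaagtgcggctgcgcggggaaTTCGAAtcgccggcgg
Cdk1, chr10:69352883-69353082, minus strand: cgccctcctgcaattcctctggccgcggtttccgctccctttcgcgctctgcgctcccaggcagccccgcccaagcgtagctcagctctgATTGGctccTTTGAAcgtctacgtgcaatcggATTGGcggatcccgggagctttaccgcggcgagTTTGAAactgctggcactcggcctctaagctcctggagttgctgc
Ccnb2, chr9:70421525-70421724, minus strand: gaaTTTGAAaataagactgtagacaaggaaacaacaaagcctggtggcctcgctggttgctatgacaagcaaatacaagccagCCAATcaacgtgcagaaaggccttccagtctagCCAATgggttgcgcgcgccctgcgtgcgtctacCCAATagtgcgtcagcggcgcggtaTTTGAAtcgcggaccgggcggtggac
Mki67, chr7:135716350-135716549, minus strand: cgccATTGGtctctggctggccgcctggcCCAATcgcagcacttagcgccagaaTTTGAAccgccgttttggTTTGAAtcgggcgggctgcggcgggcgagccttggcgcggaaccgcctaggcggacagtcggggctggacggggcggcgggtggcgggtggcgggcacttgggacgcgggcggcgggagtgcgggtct

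Hmmr has 4 CCAAT boxes and 1 TTTGAA in these 200 bases, and Ect2 has 3 CCAAT boxes and 2 TTTGAA. Ncapg2 has 1 TTTGAA and no CCAAT box there, and Bub1 has 2 CCAAT boxes and 1 TTCGAA. Of the 35 genes, 28 had an entry in the promoter table, which runs from 250 bases before to 50 after the start. Aurkb, Ccna2, Foxm1, Incenp, Kif20a, Smc4 and Tpx2 were not matched. On either strand, TTTGAA or TTCGAA was found in 23 of the 28 promoters (82.1%), against 5854 of the 27025 genes in the table (21.7%). CCAAT was found in 23 of the 28 (82.1%), against 41.1% of the table. Both elements were in 21 of the 28 promoters (75%), against 9.65% of the table, and 14 (50%) had 2 or more CCAAT boxes, against 13.3%. The motifs were searched separately, so a hexamer and a CCAAT box could share an end base, and TTCGAA reads the same on both strands. The hexamer nearest the start began within 50 bases of it in 20 of the 23 genes, and 37 of 49 CCAAT matches lay between 150 and 10 bases before it. Birc5, Mad2l1 and Nusap1 had neither element in the window. Ncapg2 and Anln had a hexamer without a CCAAT box, and Ccnb1 and Cenpe had a CCAAT box without a hexamer. A match describes these letters and is not evidence of binding.

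**Figure D1:**
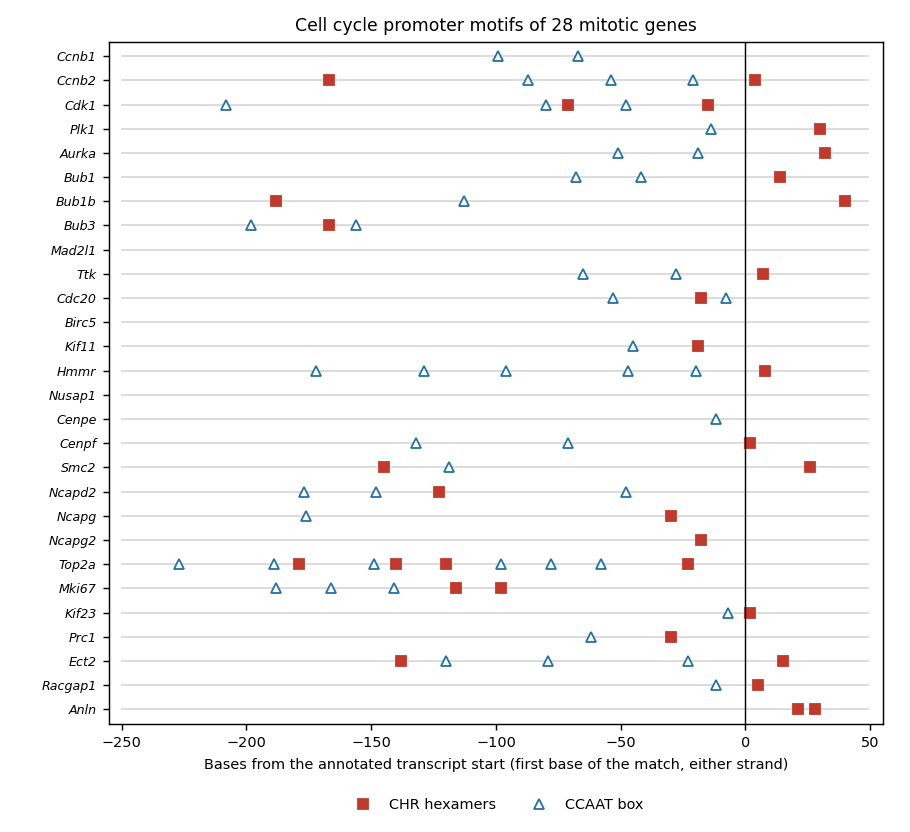
Positions of CHR hexamers (squares) and CCAAT boxes (triangles) in 28 mitotic promoters, in bases from the annotated start, where 0 is the first transcribed base. In most rows a hexamer lies close to the start and the CCAAT boxes lie before it.

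The libraries were of very unequal depth. The library labelled Sirpa-KO replicate 1 (below, the deep library) held 29877270 counts, 82.6 times the mean of the 5 shallow libraries, which held 338824 to 411695. CPM, the unit used for levels, scales every library to 1 common total. In the shallow libraries a single count (1) is worth 2.43 to 2.95 CPM and 3 counts, the floor of detection used here, 7.29 to 8.85 CPM. Processed pseudogenes took 0.177% of counts in the deep library, 26.6% and 26.5% in Sirpa-KO replicates 2 and 3, and 28.6% to 29.7% in Sirpa-WT. Because that library stands apart from both groups, counts of calls and the fold changes of the members tested in detail are given with all 6 libraries and with the 5 shallow ones. From replicate 1 to 3, Sirpa itself had 1584, 6 and 6 counts under the Sirpa-KO label (53.0, 17.7 and 16.3 CPM), against 12, 7 and 3 counts under the Sirpa-WT label (29.1, 20.4 and 8.68 CPM). The deep library thus held more Sirpa than every Sirpa-WT library, against its knockout label, and the shallow groups overlapped. The edited site is not given in the sources used here, so counts over all exons do not check the labels. Each direction below, above all over 6 libraries, is one between libraries labelled Sirpa-KO and Sirpa-WT. All 10 listed melanocyte markers had a count in every library, with summed levels of 12738 to 16022 CPM in Sirpa-KO and 16128 to 19255 CPM in Sirpa-WT. Of the 9 tested, 3 were lower in Sirpa-KO over the 5 shallow libraries and none was higher: Dct at -1.02 ± 0.08 on the log2 scale (edgeR adjusted p = 6.34e-32), Mitf at -0.76 ± 0.13 (edgeR adjusted p = 2.42e-06) and Pmel at -0.48 ± 0.11 (edgeR adjusted p = 0.00154). Over 6 libraries edgeR called none of the 9. Listed leukocyte genes summed to 5.92 to 32.6 CPM in Sirpa-KO and 9.72 to 26.2 CPM in Sirpa-WT, with 7 of 10 at 0 in every shallow library. Fibroblast genes summed to 2.95 to 18.6 CPM in Sirpa-KO and 0 to 14.5 CPM in Sirpa-WT, with 3 of 8 at 0 in every shallow library. Endothelial genes reached at most 5.44 CPM in Sirpa-KO and 2.91 CPM in Sirpa-WT, with 5 of 7 at 0. The part of these markers in the results for the mitotic genes was not tested.

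Among the shallow libraries, 4 of the mitotic genes were higher in Sirpa-KO by the test: Hmmr, a microtubule-associated spindle protein, Ect2, the exchange factor that activates RhoA at the cleavage furrow, Ncapg2, a subunit of condensin II, and Bub1, a spindle checkpoint kinase. None was lower. The 4 stood among 33 members that passed the count filter; Plk1 and Kif23 did not pass it. Of all 5510 genes tested over the 5 libraries, 322 were called (5.84%), 73 higher (1.32%) and 249 lower (4.52%), by edgeR's quasi-likelihood test at a Benjamini-Hochberg adjusted p below 0.05. At an unadjusted p below 0.05 edgeR gave 7 of the 33 higher (those 4 with Aurka, Ccna2 and Kif20a) and 0 lower, beside 493 genes higher (8.95%) and 653 lower (11.9%) among all tested. The median log2 fold change, Sirpa-KO over Sirpa-WT, was 0.17 over the 33 genes and 0.013 over all genes tested. Of the 33, 27 were above 0, beside 2821 of all 5510 genes tested. In CPM, 14 of the 33 had both shallow Sirpa-KO libraries above all 3 Sirpa-WT libraries, where 26.3% of all tested genes did, and none had both below, where 11.8% did. CPM here and below are scaled by library size alone, unlike the tested fold changes. On that scale the median log2 fold change of all genes was 0.15, so narrow separations in CPM lean towards Sirpa-KO. The count of 4 fell to 0 without Sirpa-KO replicate 2, to 1 (Ncapg2) without Sirpa-KO replicate 3, and to 2 (Ect2 and Ncapg2) without Sirpa-WT replicate 2. Over the same 5 libraries limma voom called the same 4 genes. DESeq2 gave 26 of the 33, those 4 included, no adjusted p, and without its filter on low means it called none. In these bulk libraries, more cells in G2 and mitosis and more RNA of these genes per cell cannot be told apart.

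Over all 6 libraries, edgeR called none of the 33 genes and none of the 5397 genes tested (0%). At an unadjusted p below 0.05 it gave 7 of the 33, all higher in Sirpa-KO, beside 254 genes higher (4.71%) and 90 lower (1.67%) among all tested. DESeq2 called none of the 33 and 1 gene in all, and limma voom called Ncapg2 among the 33 and 1283 genes in all. The smallest unadjusted p among the 33 was 0.00874, for Ncapg2, and its edgeR adjusted p was 0.574. The median log2 fold change was 0.75 over the 33 genes and 0.11 over all genes tested. All 3 Sirpa-KO libraries lay above all 3 Sirpa-WT libraries in CPM for 13 of the 33, where 20.4% of all tested genes did, and none lay below, where 10.2% did. The biological coefficient of variation, the fitted spread between replicates beyond counting error, was 75.8% over 6 libraries and 7.25% over 5.

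**Figure D2:**
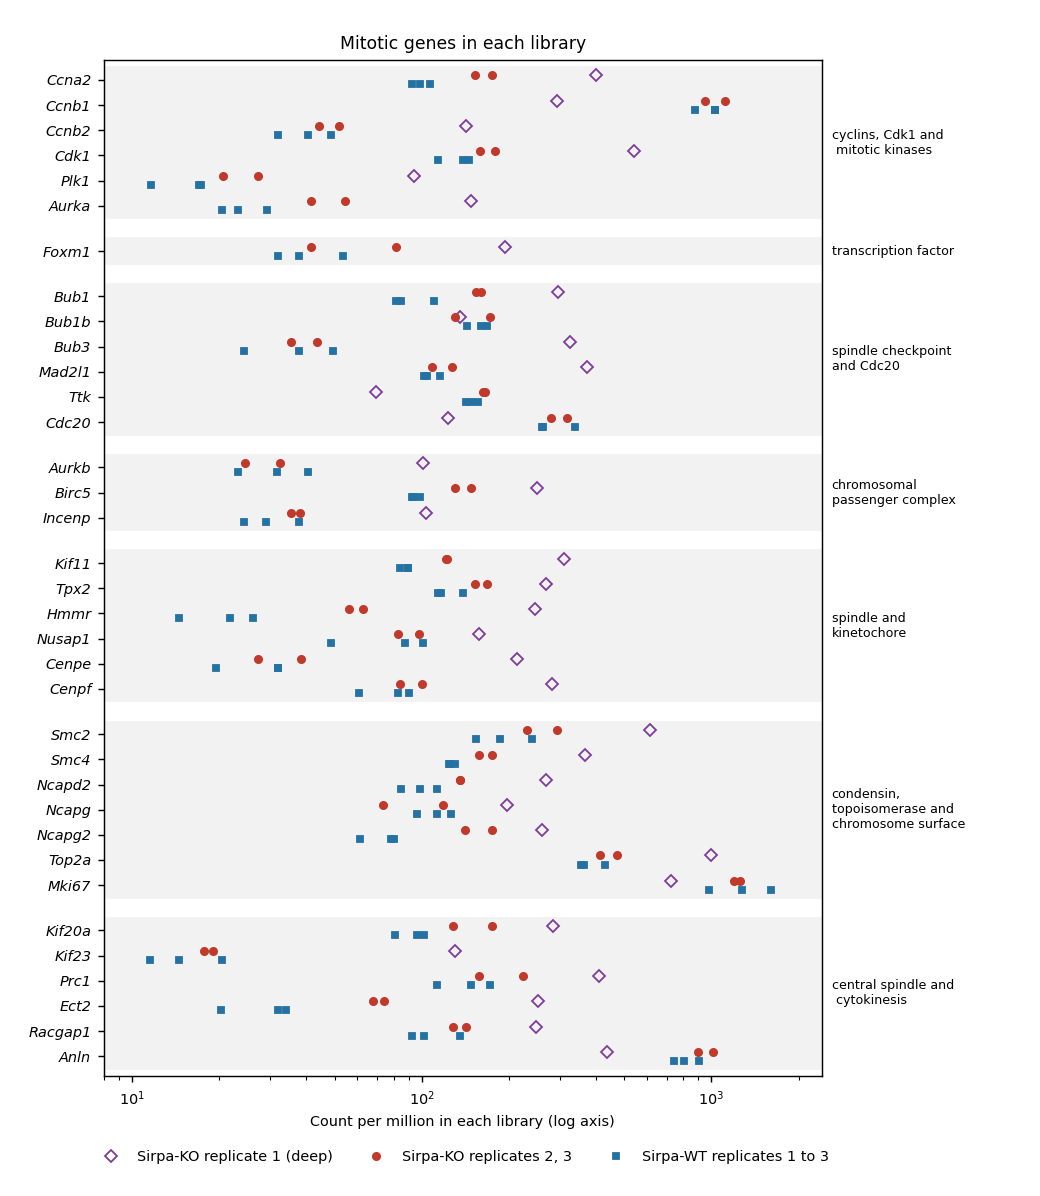
Level of each of the 35 genes in each library, in CPM on a log axis, grouped by role; diamonds are the deep library, circles Sirpa-KO replicates 2 and 3, and squares the Sirpa-WT libraries. For most genes the deep library lies far to the right of the other 5, and for Ccnb1, Cdc20, Ttk, Mki67 and Anln it lies to their left.

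The cyclins, Cdk1 and the mitotic kinases set the entry into mitosis, and none of the 5 tested was called. In what follows values run from replicate 1 to replicate 3, and log2 fold changes carry their standard error. Ccna2, the cyclin of S and G2 phase, had 11926, 59 and 56 counts in Sirpa-KO (399, 174 and 152 CPM), against 38, 34 and 37 counts in Sirpa-WT (92.3, 98.9 and 107 CPM). Both shallow Sirpa-KO libraries lay above every Sirpa-WT library, and the deep library was highest. The 5-library log2 fold change of Ccna2 was 0.60 ± 0.21 (edgeR adjusted p = 0.0688), and that over 6 libraries was 1.12 ± 0.42 (edgeR adjusted p = 0.574). About 14.6% of its exon bases overlap Exosc9 on the other strand, whose reads the counting could not separate.

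Cdk1, the kinase that drives mitosis, had 16100, 54 and 66 counts in Sirpa-KO (539, 159 and 179.5 CPM), against 47, 50 and 48 counts in Sirpa-WT (114, 145 and 139 CPM). The 2 genotypes did not overlap, with shallow Sirpa-KO values just above Sirpa-WT. Its fold change was 0.24 ± 0.20 over 5 libraries (edgeR adjusted p = 0.541) and 0.97 ± 0.52 over 6 (edgeR adjusted p = 0.574). Ccnb1, the B-type cyclin partner of Cdk1, had 8741, 377 and 350 counts in Sirpa-KO (293, 1113 and 952 CPM), against 422, 355 and 304 counts in Sirpa-WT (1025, 1033 and 879.8 CPM). The shallow libraries of the genotypes overlapped, and the deep library was the lowest of all. Ccnb1 had a fold change of -0.046 ± 0.11 over 5 libraries (edgeR adjusted p = 0.857) and -0.45 ± 0.59 over 6 (edgeR adjusted p = 0.746). Of its 25-base words, 27.8% also occur in annotated pseudogenes, so its count is uncertain.

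Aurka, the kinase of centrosomes and spindle poles, had 4432, 14 and 20 counts in Sirpa-KO (148, 41.3 and 54.4 CPM), against 12, 7 and 8 counts in Sirpa-WT (29.1, 20.4 and 23.2 CPM). No Sirpa-WT library reached the lower of the shallow Sirpa-KO libraries. The fold change of Aurka was 0.84 ± 0.38 over 5 libraries (edgeR adjusted p = 0.174) and 1.59 ± 0.57 over 6 (edgeR adjusted p = 0.574). Ccnb2, the second B-type cyclin, had 142, 44.3 and 51.7 CPM in Sirpa-KO, against 48.6, 32.0 and 40.5 CPM in Sirpa-WT, with the shallow genotypes overlapping. Plk1, the polo kinase, had 4 to 10 counts in the shallow libraries and 94.3, 20.7 and 27.2 CPM in Sirpa-KO, against 17.0, 11.6 and 17.4 CPM in Sirpa-WT. Its shallow genotypes did not overlap, but Plk1 was under the count filter and 20.6% of its words occur in a pseudogene.

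Foxm1, the transcription factor of late cell cycle genes, had 5778, 14 and 30 counts in Sirpa-KO (193, 41.3 and 81.6 CPM), against 22, 13 and 11 counts in Sirpa-WT (53.4, 37.8 and 31.8 CPM). Sirpa-KO replicate 3 was the highest shallow library, while replicate 2 lay within the Sirpa-WT values. Foxm1 gave 0.45 ± 0.32 over 5 libraries (edgeR adjusted p = 0.432) and 1.20 ± 0.60 over 6 (edgeR adjusted p = 0.574).

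Of the 6 listed genes of the spindle checkpoint, Cdc20 included, 1 was called. Bub1, on chromosome 2 from 127801122 to 127831865, had 8798, 52 and 59 counts in Sirpa-KO (294, 153 and 160.5 CPM), against 35, 28 and 38 counts in Sirpa-WT (85.0, 81.4 and 110.0 CPM). All Sirpa-KO libraries lay above all Sirpa-WT libraries, with means of 157 ± 4.95 CPM in shallow Sirpa-KO (SD, n = 2) and 92.1 ± 15.5 CPM in Sirpa-WT (SD, n = 3). Over 5 libraries Bub1 rose by 0.65 ± 0.22 on the log2 scale (edgeR adjusted p = 0.0476), and the fold change over 6 was 0.98 ± 0.35 (edgeR adjusted p = 0.574). The 5-library call lies close to the threshold: it was kept in 5 of 16 alternative fits, whose fold changes ran from 0.43 to 0.80. For Bub1, and for Hmmr, Ect2 and Ncapg2 below, the 16 leave out DESeq2 with its filter on low means. That fit gave these genes no adjusted p and did not call them. Without Sirpa-WT replicate 3 the call of Bub1 was kept, and it was lost on leaving out any of the other shallow libraries.

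Ttk, the checkpoint kinase also called Mps1, had 2077, 55 and 61 counts in Sirpa-KO (69.5, 162 and 166 CPM), against 61, 49 and 54 counts in Sirpa-WT (148, 143 and 156 CPM). The shallow Sirpa-KO libraries lay above Sirpa-WT in CPM by a narrow margin, and the deep library was the lowest. Ttk had a fold change of 0.020 ± 0.20 over 5 libraries (edgeR adjusted p = 0.971) and -0.32 ± 0.42 over 6 (edgeR adjusted p = 0.748). Cdc20, the activator of the anaphase-promoting complex, had 3693, 95 and 117 counts in Sirpa-KO (124, 280.4 and 318 CPM), against 139, 90 and 90 counts in Sirpa-WT (338, 262 and 260.5 CPM). Its shallow libraries overlapped between genotypes, with the deep library lowest. For Cdc20 the fold change was -0.065 ± 0.16 over 5 libraries (edgeR adjusted p = 0.863) and -0.40 ± 0.44 over 6 (edgeR adjusted p = 0.71), and 33.4% of its words occur in pseudogenes.

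Bub1b, which encodes the checkpoint protein BubR1, had 135, 129.9 and 171 CPM in Sirpa-KO, against 143, 160.0 and 168 CPM in Sirpa-WT. Bub3, which carries Bub1 and BubR1 to kinetochores, had 326, 35.4 and 43.5 CPM in Sirpa-KO, against 24.3, 37.8 and 49.2 CPM in Sirpa-WT. Mad2l1, which encodes Mad2, the inhibitor of Cdc20, had 372, 127 and 109 CPM in Sirpa-KO, against 104, 102 and 116 CPM in Sirpa-WT. The shallow libraries of the genotypes overlapped for each of these 3 genes. Bub3 was the member with the largest excess in the deep library.

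The chromosomal passenger complex corrects faulty attachments of chromosomes to the spindle, and none of its 3 genes listed here was called. Birc5, which encodes survivin, had 7439, 50 and 48 counts in Sirpa-KO (249, 148 and 131 CPM), against 38, 32 and 34 counts in Sirpa-WT (92.3, 93.1 and 98.4 CPM). No Sirpa-WT library reached the lower shallow Sirpa-KO value. Birc5 gave 0.43 ± 0.22 over 5 libraries (edgeR adjusted p = 0.246) and 0.73 ± 0.32 over 6 (edgeR adjusted p = 0.574). Aurkb, the kinase of the complex, had 101, 32.5 and 24.5 CPM in Sirpa-KO, against 31.6, 23.3 and 40.5 CPM in Sirpa-WT, and Incenp, its scaffold, had 103, 35.4 and 38.1 CPM in Sirpa-KO, against 24.3, 37.8 and 28.9 CPM in Sirpa-WT. Both overlapped between the shallow groups.

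The spindle and kinetochore genes held the member with the largest fold change. Hmmr, on chromosome 11 from 40701395 to 40733422, had 7340, 19 and 23 counts in Sirpa-KO (246, 56.1 and 62.6 CPM), against 9, 5 and 9 counts in Sirpa-WT (21.9, 14.5 and 26.0 CPM). Every Sirpa-KO library lay above every Sirpa-WT library, and the deep library was far above the rest. Shallow Sirpa-KO averaged 59.3 ± 4.58 CPM (SD, n = 2), and Sirpa-WT averaged 20.8 ± 5.82 CPM (SD, n = 3). Over 5 libraries Hmmr rose by 1.37 ± 0.37 on the log2 scale (edgeR adjusted p = 0.00843), and the fold change over 6 was 2.38 ± 0.69 (edgeR adjusted p = 0.574). It was called in 11 of 16 alternative fits over the shallow libraries, with fold changes of 1.11 to 1.55; leaving out Sirpa-KO replicate 2, Sirpa-KO replicate 3 or Sirpa-WT replicate 2 ended the call. Its promoter, printed above, was among those with several CCAAT boxes.

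Kif11, the kinesin that pushes spindle poles apart, had 9259, 41 and 45 counts in Sirpa-KO (309.9, 121 and 122 CPM), against 37, 29 and 31 counts in Sirpa-WT (89.9, 84.3 and 89.7 CPM). The 2 shallow Sirpa-KO libraries were nearly equal and above all 3 Sirpa-WT libraries. Kif11 gave 0.35 ± 0.23 over 5 libraries (edgeR adjusted p = 0.418) and 0.90 ± 0.43 over 6 (edgeR adjusted p = 0.574). Tpx2, which nucleates spindle microtubules and activates Aurora A, had 8009, 57 and 56 counts in Sirpa-KO (268, 168 and 152 CPM), against 47, 40 and 48 counts in Sirpa-WT (114, 116 and 139 CPM). The genotypes did not overlap here either, although the margin was small. Tpx2 gave 0.26 ± 0.21 over 5 libraries (edgeR adjusted p = 0.504) and 0.51 ± 0.31 over 6 (edgeR adjusted p = 0.574).

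Nusap1, which bundles spindle microtubules, had 158, 82.6 and 97.9 CPM in Sirpa-KO, against 48.6, 87.3 and 101 CPM in Sirpa-WT. Cenpe, the kinesin that moves chromosomes to the spindle equator, had 213, 38.4 and 27.2 CPM in Sirpa-KO, against 19.4, 32.0 and 31.8 CPM in Sirpa-WT. Cenpf, a large protein of the outer kinetochore, had 280.4, 100.3 and 84.3 CPM in Sirpa-KO, against 82.6, 90.2 and 60.8 CPM in Sirpa-WT. The shallow libraries of both genotypes overlapped for all 3.

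Condensin I and II fold chromosomes with the shared subunits Smc2 and Smc4, and 1 of the 7 listed genes of chromosome structure was called. Ncapg2, on chromosome 12 from 116405402 to 116463531, had 7769, 59 and 52 counts in Sirpa-KO (260.0, 174 and 141 CPM), against 33, 21 and 27 counts in Sirpa-WT (80.2, 61.1 and 78.1 CPM). All Sirpa-KO libraries lay above all Sirpa-WT libraries, by a wide margin even in the shallow ones. Means were 158 ± 23.1 CPM in shallow Sirpa-KO (SD, n = 2) and 73.1 ± 10.5 CPM in Sirpa-WT (SD, n = 3). Over 5 libraries Ncapg2 rose by 0.97 ± 0.23 on the log2 scale (edgeR adjusted p = 0.00122), and the fold change over 6 was 1.23 ± 0.32 (edgeR adjusted p = 0.574). It was called in 14 of 16 alternative fits, with fold changes of 0.75 to 1.11, and was not called by DESeq2 without its filter on low means or without Sirpa-KO replicate 2.

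Ncapg, its counterpart in condensin I, had 196, 118 and 73.4 CPM in Sirpa-KO, against 126, 96.0 and 113 CPM in Sirpa-WT, and its fold change was -0.36 ± 0.24 over 5 libraries (edgeR adjusted p = 0.393) and 0.050 ± 0.40 over 6 (edgeR adjusted p = 0.943). About 13.3% of its exon bases overlap Lcorl on the other strand. The difference between Ncapg2 and Ncapg was not tested. Ncapd2, another condensin I subunit, had 8045, 46 and 50 counts in Sirpa-KO (269, 136 and 136 CPM), against 35, 34 and 39 counts in Sirpa-WT (85.0, 98.9 and 113 CPM). The 2 shallow Sirpa-KO libraries were equal to 3 digits and above Sirpa-WT. Ncapd2 gave 0.35 ± 0.22 over 5 libraries (edgeR adjusted p = 0.384) and 0.70 ± 0.36 over 6 (edgeR adjusted p = 0.574).

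Smc4 had 10921, 59 and 58 counts in Sirpa-KO (366, 174 and 158 CPM), against 51, 43 and 45 counts in Sirpa-WT (124, 125 and 130.2 CPM). Every Sirpa-KO library lay above every Sirpa-WT library. Smc4 gave 0.27 ± 0.20 over 5 libraries (edgeR adjusted p = 0.48) and 0.71 ± 0.38 over 6 (edgeR adjusted p = 0.574). Smc2 had 613, 292 and 231 CPM in Sirpa-KO, against 240.5, 186 and 153 CPM in Sirpa-WT, and its shallow genotypes overlapped.

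Top2a, the topoisomerase that untangles sister chromatids, had 29839, 140 and 174 counts in Sirpa-KO (999, 413 and 473 CPM), against 146, 147 and 125 counts in Sirpa-WT (355, 428 and 362 CPM). Shallow Sirpa-KO replicate 2 lay below Sirpa-WT replicate 2, so the groups overlapped. Top2a gave 0.10 ± 0.14 over 5 libraries (edgeR adjusted p = 0.743) and 0.55 ± 0.42 over 6 (edgeR adjusted p = 0.595). Mki67, which encodes the Ki-67 antigen on the surface of mitotic chromosomes, had 21716, 424 and 439 counts in Sirpa-KO (727, 1251 and 1194 CPM), against 659, 438 and 339 counts in Sirpa-WT (1601, 1274 and 981 CPM). Sirpa-WT spread widely around the shallow Sirpa-KO values, and the deep library was lowest. The fold change of Mki67 was -0.20 ± 0.10 over 5 libraries (edgeR adjusted p = 0.248) and -0.43 ± 0.47 over 6 (edgeR adjusted p = 0.704). Leaving out Sirpa-WT replicate 3 put Mki67 past the threshold, at -0.35 (edgeR adjusted p = 0.0134), and leaving out Sirpa-WT replicate 1 gave -0.0031 (edgeR adjusted p = 0.989).

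Cytokinesis genes build the central spindle and the contractile ring, and 1 of the 5 tested was called. Ect2, on chromosome 3 from 27097222 to 27153878, had 7515, 25 and 25 counts in Sirpa-KO (252, 73.8 and 68.0 CPM), against 14, 11 and 7 counts in Sirpa-WT (34.0, 32.0 and 20.3 CPM). The lowest Sirpa-KO library held more than every Sirpa-WT library, at 70.9 ± 4.09 CPM in shallow Sirpa-KO (SD, n = 2) and 28.8 ± 7.43 CPM in Sirpa-WT (SD, n = 3). Over 5 libraries Ect2 rose by 1.16 ± 0.33 on the log2 scale (edgeR adjusted p = 0.0142), and over 6 the fold change was 2.02 ± 0.62 (edgeR adjusted p = 0.574). It was called in 10 of 16 alternative fits, with fold changes of 0.90 to 1.31; leaving out Sirpa-KO replicate 2, Sirpa-KO replicate 3 or Sirpa-WT replicate 3 ended the call. None of its exon bases overlaps another gene and none of its words occurs in a pseudogene.

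Kif20a, the kinesin that carries Plk1 to the central spindle, had 8499, 59 and 47 counts in Sirpa-KO (284, 174 and 128 CPM), against 42, 33 and 28 counts in Sirpa-WT (102, 96.0 and 81.0 CPM). The shallow groups did not overlap. Kif20a gave 0.56 ± 0.22 over 5 libraries (edgeR adjusted p = 0.104) and 0.91 ± 0.36 over 6 (edgeR adjusted p = 0.574), but 33.2% of its exon bases overlap Cdc23 on the other strand, so the count is uncertain. Anln, the actin-binding scaffold of the contractile ring, had 13007, 342 and 331 counts in Sirpa-KO (435, 1009 and 900.3 CPM), against 373, 255 and 277 counts in Sirpa-WT (906, 742 and 802 CPM). Sirpa-WT replicate 1 lay just above Sirpa-KO replicate 3, so the groups overlapped, and the deep library was lowest. The fold change of Anln was 0.10 ± 0.11 over 5 libraries (edgeR adjusted p = 0.659) and -0.20 ± 0.46 over 6 (edgeR adjusted p = 0.838).

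Prc1, which bundles antiparallel microtubules, had 409, 224 and 158 CPM in Sirpa-KO, against 172, 148 and 113 CPM in Sirpa-WT. Racgap1, the GTPase-activating subunit of centralspindlin, had 247, 142 and 128 CPM in Sirpa-KO, against 136, 102 and 92.6 CPM in Sirpa-WT. Kif23, its kinesin partner, had 4 to 7 counts in the shallow libraries, with 130.4, 17.7 and 19.0 CPM in Sirpa-KO, against 14.6, 20.4 and 11.6 CPM in Sirpa-WT, and was under the count filter. All 3 overlapped between the shallow genotypes.

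Levels of different genes can be compared per length of exon. In the shallow libraries Ccnb1 had the highest level, with means of 245 CPM per kb in Sirpa-KO and 232 CPM per kb in Sirpa-WT. Anln followed with 176 CPM per kb in Sirpa-KO and 151 in Sirpa-WT, then Cdc20 with 160 in Sirpa-KO and 153 in Sirpa-WT. The levels of Ccnb1 and Cdc20 are uncertain, since 27.8% and 33.4% of their 25-base words occur in pseudogenes. Mki67 had 121 CPM per kb in Sirpa-KO and 128 in Sirpa-WT, and Ttk had 56.5 in Sirpa-KO and 51.3 in Sirpa-WT. The order of Anln, Cdc20 and Mki67 was within the spread of the libraries, since Sirpa-WT ran from 137 to 167 CPM per kb for Anln, 139 to 181 for Cdc20 and 97.4 to 159 for Mki67. Cenpe was lowest in both genotypes, at 4.20 CPM per kb in shallow Sirpa-KO and 3.55 in Sirpa-WT. The deep library ranked the genes otherwise: Mad2l1 was first at 169 CPM per kb, then Bub3 at 158, Cdk1 at 156, Ccna2 at 114 and Smc2 at 112, with Ttk last at 23.9.

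That difference in order splits the 35 genes into 2 sets. For each gene the log2 CPM of the deep library minus the mean log2 CPM of the 5 shallow libraries was taken, a log2 ratio. Across the 4295 protein-coding genes tested it has 2 peaks, and 1368 of them (31.9%) lay more than 1 log2 unit below the median of 0.96, here called low ratio. Of the 35 mitotic genes 6 were of low ratio: Ccnb1 at -1.77, Cdc20 at -1.23, Ttk at -1.15, Anln at -0.99, Mki67 at -0.78 and Bub1b at -0.18. The other 29 ran from 0.92 for Ncapg to 3.12 for Bub3, with a median of 1.66. Bub1b and Ncapg are the genes nearest the bound of -0.042 on either side. Of the 3 tested protein-coding genes on each side, 22 of 36 next to the 6 genes (61.1%) were of low ratio, and 39 of 171 next to the other 29 (22.8%). Single genes differed from these pooled shares: 2 of 6 neighbours of Mki67 and 3 of 6 of Ttk and of Cdc20 were of low ratio, as were 5 of 6 of Ncapg and 4 of 6 of Ect2 and of Ncapd2. These shares are a description, since neighbouring genes are not independent. The ratio uses the same shallow libraries as the comparison of genotypes, and the deep library in it is labelled Sirpa-KO. The classes can therefore hold part of a difference between the genotypes.

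**Figure D3:**
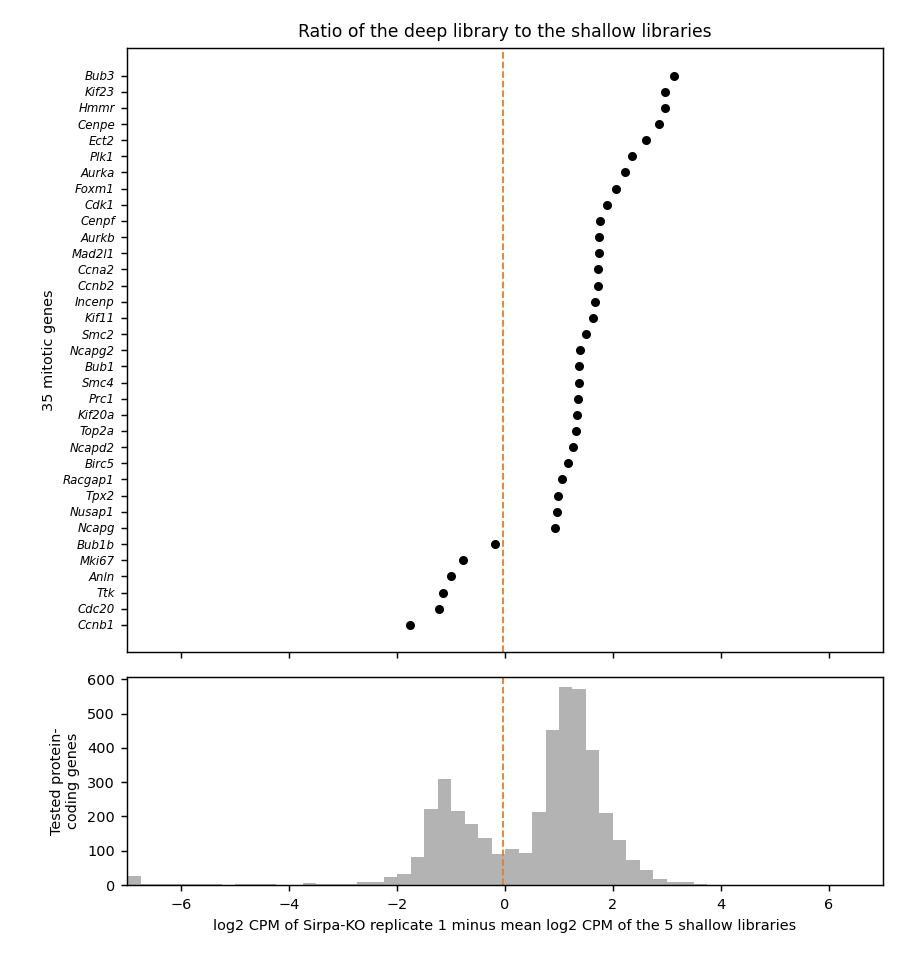
Top, log2 ratio, the deep library over the 5 shallow ones, for the 35 genes; bottom, its histogram over 4295 tested protein-coding genes, where values beyond the axis are counted in the end bins. The dashed line is the bound of low ratio at -0.042, with 6 genes to its left and 29 to its right. The histogram has 2 peaks, and Bub1b lies between them.

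The 5-library fold changes were also split by class. Among the 27 tested mitotic genes not of low ratio, 25 had a 5-library log2 fold change above 0 beside 2046 of the 2927 tested protein-coding genes of that class (69.9%). Their median was 0.26, beside 0.18 over the class. All 4 called genes were among them, where 62 of the 2927 (2.12%) were called higher, and for 13 both shallow Sirpa-KO libraries lay above Sirpa-WT, where this held for 37.6% of the class. Of the 6 of low ratio 2 were above 0, beside 253 of the 1368 genes of that class (18.5%). Their median was -0.056, beside -0.26 over the class.

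Summed levels show the same split. The 29 genes not of low ratio summed to 8461, 3518 and 3313 CPM in Sirpa-KO, against 2563, 2539 and 2518 CPM in Sirpa-WT. The 6 of low ratio summed to 1783, 3946 and 3702 CPM in Sirpa-KO, against 4161, 3612 and 3247 CPM in Sirpa-WT. As a share of all tested protein-coding genes of their own class, the 27 tested genes not of low ratio took 1.29%, 1.10% and 1.03% in Sirpa-KO, against 0.985%, 0.942% and 0.933% in Sirpa-WT. The 6 took 1.12%, 1.19% and 1.13% in Sirpa-KO, against 1.11%, 0.983% and 0.911% in Sirpa-WT. On this scale every Sirpa-KO library was above every Sirpa-WT library in both sets, with Sirpa-KO replicate 1 and Sirpa-WT replicate 1 close together for the 6. These sums are given without a test.

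**Figure D4:**
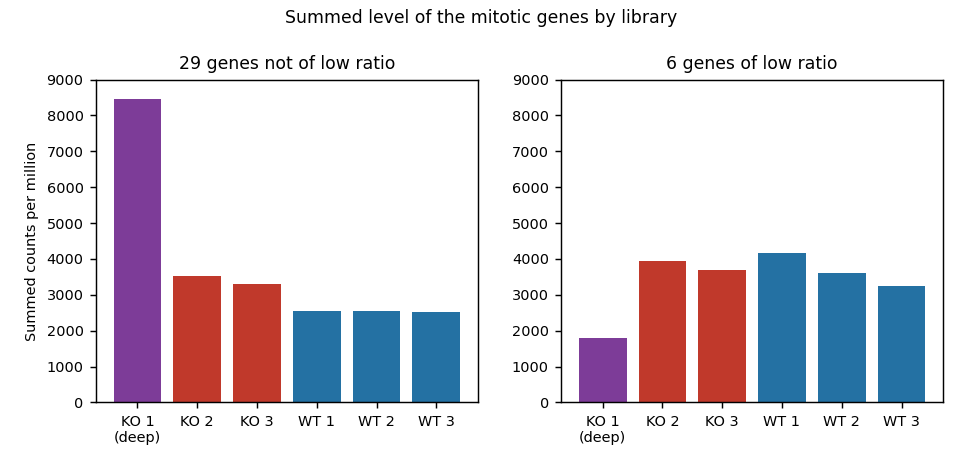
Summed CPM in each library of the 29 mitotic genes not of low ratio (left) and of the 6 of low ratio (right), with Sirpa-KO replicates before Sirpa-WT replicates. The 29 sum to 8461, 3518 and 3313 CPM in Sirpa-KO, all above Sirpa-WT, while the 6 overlap between genotypes and are lowest in the deep library.

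The differences along the ratio were also removed from each shallow library, by subtracting a lowess curve of its centred log2 CPM on the ratio. Since the deep library in the ratio is labelled Sirpa-KO, such offsets can also take away a difference between the genotypes. Over these offsets, edgeR called 35 of 5510 genes higher (0.635%) and 69 lower (1.25%). Of the mitotic genes Ncapg2 remained called, at 0.75 ± 0.23 (edgeR adjusted p = 0.047). Hmmr was then 1.11 ± 0.37 (edgeR adjusted p = 0.0968), Ect2 0.90 ± 0.33 (edgeR adjusted p = 0.154) and Bub1 0.43 ± 0.21 (edgeR adjusted p = 0.383). At an unadjusted p below 0.05 there were 6 mitotic genes higher and 1 lower, beside 321 genes higher (5.83%) and 367 lower (6.66%) among all tested. Those higher were Anln, Bub1, Ccnb1, Ect2, Hmmr and Ncapg2, without Aurka, Ccna2 and Kif20a. Ncapg was lower, at -0.50 ± 0.23 (edgeR adjusted p = 0.327). The median over the 33 was 0.070, beside 0.0035 over all genes tested. Of the 33, 21 were above 0, beside 2774 of all 5510 genes tested. The 6 of low ratio then had a median of 0.22, beside -0.030 for their class, and the other 27 had a median of 0.050, beside 0.011 for theirs. Anln had the smallest adjusted p among the 6, at 0.34 ± 0.11 (edgeR adjusted p = 0.0642), and Ccnb1 was 0.23 ± 0.10 (edgeR adjusted p = 0.315).

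**Figure D5:**
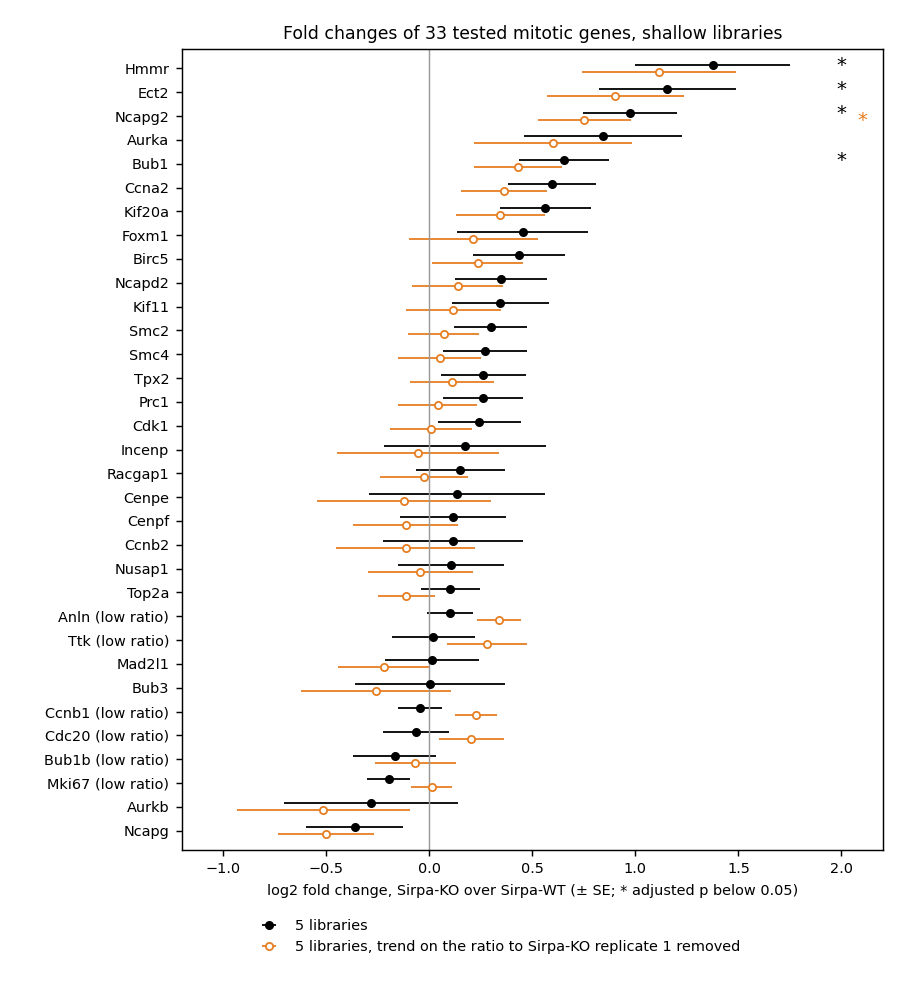
Log2 fold change (Sirpa-KO over Sirpa-WT, points, with SE as bars) of 33 tested mitotic genes in the shallow libraries, as fitted (black) and after removing the trend along that ratio (orange). Hmmr, Ect2, Ncapg2 and Bub1 pass an adjusted p of 0.05 as fitted and Ncapg2 alone does with the trend removed.

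Other cell cycle genes were counted in 9 further lists, over the 5 shallow libraries; over 6, edgeR called none of their genes. Of 23 tested genes for other spindle motors and microtubule proteins 1 was called higher and 1 lower by edgeR, beside 1.32% higher and 4.52% lower of all genes tested. Ckap5, a microtubule polymerase, had 10770, 48 and 53 counts in Sirpa-KO (360.5, 142 and 144 CPM), against 32, 24 and 31 counts in Sirpa-WT (77.7, 69.8 and 89.7 CPM), and all its Sirpa-KO libraries lay above Sirpa-WT. It rose by 0.73 ± 0.23 on the log2 scale (edgeR adjusted p = 0.0311), and was 0.50 with the trend removed (edgeR adjusted p = 0.316). Tubb5, a tubulin, had 33515, 810 and 1021 counts in Sirpa-KO (1122, 2391 and 2777 CPM), against 1494, 1116 and 1041 counts in Sirpa-WT (3629, 3246 and 3013 CPM), lowest in the deep library, and its change was -0.47 ± 0.09 (edgeR adjusted p = 1.43e-05). With the trend removed Tubb5 was -0.19 (edgeR adjusted p = 0.298), while Tuba1b, another tubulin, passed the test as higher at 0.52 (edgeR adjusted p = 0.0038).

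In 3 further lists 1 gene each was called lower by edgeR, where 4.52% of all genes tested were. Among 13 tested genes of the anaphase-promoting complex and its cofactors it was Anapc11, its RING subunit, at -0.77 ± 0.22 (edgeR adjusted p = 0.0142). Among 15 tested genes of the centromere and kinetochore it was Cenpq, at -0.60 ± 0.19 (edgeR adjusted p = 0.033). The 11 tested regulators of cell cycle transcription gave Nfyc, a subunit of NF-Y, at -0.65 ± 0.17 (edgeR adjusted p = 0.00392). With the trend removed, Anapc11 was -0.52 (edgeR adjusted p = 0.26), Cenpq -0.32 (edgeR adjusted p = 0.503) and Nfyc -0.45 (edgeR adjusted p = 0.143). All 3 of these genes are of low ratio. Their median log2 fold changes were 0.12, 0.22 and 0.20 over the 3 lists in that order, and 0.080 over the microtubule list, beside 0.013 over all genes tested.

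The other 5 lists had no called gene by edgeR or limma voom, and none by DESeq2 among the genes it gave an adjusted p. They covered 7 tested mitotic kinases and entry factors, 10 cohesin and condensin genes, 9 cytokinesis genes, 8 G1 cyclins, kinases and inhibitors and 22 S phase replication factors. At an unadjusted p below 0.05 edgeR gave 1, 3, 0, 1 and 3 genes of these lists in that order, of which 1, 3, 0, 1 and 2 were higher; of all genes tested 8.95% were higher and 11.9% lower at that p. Medians were -0.083, 0.067, 0.011, -0.020 and 0.19.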

How the data were processed

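The values are raw counts per gene. Per the file headers, the authors counted fragments over exons with featureCounts 1.5.1 and the Ensembl release 75 annotation of GRCm38, without a strand option, and deposited the counts unnormalized. Per the labels' protocols the library kit was stranded, so reads from overlapping genes on opposite strands cannot be told apart in these counts. STAR 2.6.0 and Subread stand in the submitters' processing notes. Each library's genotype and number were read from its title, and the tables held 0 columns of other samples. Gene types came from GENCODE mouse release 21 by gene identifier, which matched 37693 of 39179 genes. Symbols came from a separate list of gene names, which matched 37607.

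Genes were filtered with filterByExpr (minimum count 10), scaled by TMM and tested with edgeR 4.0.16 in R 4.3.3, by its quasi-likelihood method (robust=TRUE, 2-sided). P-values were adjusted after Benjamini and Hochberg across every gene in the fit, and a gene was called below 0.05. The fits used 6 libraries, or 5 without Sirpa-KO replicate 1. Sequencing depth limits precision: a single count (1) in the shallow libraries is worth 2.43 to 2.95 CPM. Alternatives were other scalings and filters, DESeq2 1.42.0, limma 3.58.1 voom, robust=FALSE, the replicate number as a block, leaving out each library, protein-coding genes alone, thinning the deep library, and removal of the trend (lowess span 0.3) on its log2 ratio, taken with a prior count of 2. DESeq2 without its filter on low means was added after seeing that many genes had no adjusted p. The tests were first tried on data simulated with the spread of the 5-library fit and the mean profile of the shallow libraries. That trial could not check the 6-library fit at its own, larger spread. Chi-square values per degree of freedom between shallow libraries of a genotype were 1.17 to 1.62, above sampling noise. Each library was counted as a replicate, though such values do not tell separate cultures from repeated preparations of the same RNA.

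Full values are given for a gene that was called, that passed the count filter and had shallow genotypes that did not overlap, or that had the highest level per kb of its role. They are also given for Mki67, Top2a, Cdk1, Ccnb1 and Foxm1. The 35 genes, the other lists, the choice of 5 libraries and the trend were chosen with earlier results of these data known. Pseudogene sharing is the share of a gene's 25-base words found in annotated pseudogene transcripts. Cell cycle promoter motifs were sought on both strands of RefSeq promoters (GRCm38.p6). In the shares, a gene counted if any of its listed starts had a match. Positions and printed sequences use the most downstream start of a gene.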

Additional observations from a re-analysis of the deposited data

How the results depend on the processing

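Depth limits these results: counts in the shallow libraries were low, and Plk1 and Kif23 were too low to test. Over 5 libraries the 322 calls became 132 with DESeq2, 77 with DESeq2 without its filter on low means, 196 over protein-coding genes alone, 104 with the trend removed, and 125 to 351 on leaving out 1 library (125 when it was Sirpa-KO replicate 2, 127 for Sirpa-KO replicate 3, 214 for Sirpa-WT replicate 2). The 4 mitotic genes called became 2 with no count filter, 0 with DESeq2, 0 with DESeq2 without its filter on low means, 1 with the trend removed, and 0 to 4 on leaving out 1 library; the 4 reached 6 with library size alone, which moved the median log2 fold change of all genes to 0.15 and turned the split of calls to 279 higher and 128 lower. Over 6 libraries the 0 calls became 1 with DESeq2, 1 with DESeq2 without its filter on low means, 1283 with limma voom, 17 higher and 1266 lower, and 0 to 322 on leaving out 1 library; the 0 mitotic genes called became 1 with limma voom and 0 to 4 on leaving out 1 library. The cause of these differences was not tested.

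The main fits did not pair libraries by replicate number. Over 6 libraries, same-numbered libraries had correlations of 0.024, -0.041 and 0.058 in their deviations from the group means. These values cannot decide whether the numbers pair the libraries, because the deep library enters every Sirpa-KO group mean. With the replicate block, 316 genes were called over 5 libraries, 249 of them shared with the fit without it, and 3 mitotic genes, Ect2, Hmmr and Ncapg2. Cdc20 was 0.077 and Mki67 0.0048 under the replicate block.

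Of the log2 fold changes, 704 kept their direction and their side of the threshold, 24 lost a call, 8 gained one and 32 changed sign, none of the 32 for a called gene. With library size alone Ccnb1 was 0.091 and Cdc20 0.073. With the trend removed Ccnb1 was 0.23, Cdc20 0.20, Mki67 0.011 and Top2a -0.11. Ttk was -0.016 with no count filter, -0.016 with at least 1 CPM in 3 libraries and -0.0032 over protein-coding genes alone. Ncapg over 6 libraries was -0.13 with RLE scaling, -0.23 with at least 1 CPM in 3 libraries, -0.18 with no count filter, -0.10 with DESeq2 with or without its filter, -0.041 under the replicate block, -0.22 over protein-coding genes alone and -0.17 with the deep library thinned to shallow depth. On leaving out 1 of the 6 libraries Ncapg ran from -0.36 to 0.25, Ttk ran from -0.57 to 0.020 and Anln from -0.52 to 0.10. On leaving out 1 of the 5, Ttk ran from -0.015 to 0.057, Ccnb1 from -0.18 to 0.051, Foxm1 from -0.15 to 0.82, Cdc20 from -0.17 to 0.079, Anln from -0.0050 to 0.19 and Top2a from -0.014 to 0.18.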
